A study of Mus musculus with 5 samples.

Results

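The Notch receptors, their ligands and the DNA-binding mediator Rbpj were followed in kidneys taken whole from mouse embryos of embryonic day 15.5 and profiled by bulk RNA sequencing. The genes were taken by symbol: 4 receptors (Notch1, Notch2, Notch3 and Notch4), 5 ligands (Jag1, Jag2, Dll1, Dll3 and Dll4) and Rbpj, 10 of the 32793 genes in the deposited tables. NICD_mut kidneys (2 libraries) carried Six2TGC/+, a transgene in which Six2 regulatory sequence drives Cre recombinase in nephron progenitors, together with RosaN1ICD∆PEST, an allele at the Rosa26 locus from which Cre releases an activated Notch1 without its PEST domain. NICD_wt kidneys (3 libraries) carried RosaN1ICD∆PEST without Cre. Both groups therefore held the Rosa26 allele, and the Cre driver was present in NICD_mut alone, so the driver and the activated Notch1 cannot be told apart as sources of a difference. Whether the libraries of a group came from separate animals is not stated, so the p-values cover only the spread among these libraries, part of which may be technical. The comparison asks what activated Notch1 in progenitors does to the forming nephron.

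Notch receptors are single-pass membrane proteins that are bound by Delta-like and Jagged ligands on a neighbouring cell. Ligand binding leads to cleavage by ADAM proteases and then by gamma-secretase, which frees the intracellular domain. That domain enters the nucleus, binds Rbpj and a Mastermind-like coactivator, and turns on targets such as the Hes and Hey repressors, until its PEST domain leads to its degradation. In the mouse kidney, Notch signalling is needed for nephron progenitors to leave the progenitor state and for proximal nephron cells to form, Notch2 being the receptor with the major part. Dll1 and Jag1 are made in the early nephron, while Dll4 and Notch4 are best known from endothelium and Notch3 from mural cells.

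Libraries held 17361823 to 21356447 estimated counts. Markers of podocytes, proximal tubule, stroma and endothelium were all detected, while the loop and distal tubule list summed to 19.0 and 12.1 CPM (counts put on one library size) in NICD_mut against 490.3 to 585 CPM in NICD_wt, and Slc12a1 was at 0 counts in NICD_mut 2. The 8 skeletal muscle genes summed to 3235 and 14.6 CPM in NICD_mut against 137, 5.47 and 4.78 CPM in NICD_wt, so NICD_mut 1 stood apart. For Notch3, Jag1, Jag2, Dll4 and Rbpj the change is given with and without that library.

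RefSeq promoter sequence (build GRCm38.p6, the same assembly as mm10) was matched by symbol for 10 of 10 genes, with 12 start sites among them. The 250 bases before the start are shown for Notch1 and Notch3, which were higher in NICD_mut, and for the upstream start of Dll1, which was lower. The Notch1 stretch, chr2:26503823-26504072 on the minus strand, lay within the gene as GENCODE M21 draws it, with 2 of its bases in an exon. The Notch3 stretch, chr17:32166891-32167140 on the minus strand, and the Dll1 stretch, chr17:15376933-15377182 on the minus strand, lay outside the GENCODE bounds of Notch3 and Dll1. Overlap with other genes was not checked.
Notch1: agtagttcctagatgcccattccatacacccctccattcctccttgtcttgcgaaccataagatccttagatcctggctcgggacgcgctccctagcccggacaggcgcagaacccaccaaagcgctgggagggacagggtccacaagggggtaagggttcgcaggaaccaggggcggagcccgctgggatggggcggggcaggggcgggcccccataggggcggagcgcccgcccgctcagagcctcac
Notch3: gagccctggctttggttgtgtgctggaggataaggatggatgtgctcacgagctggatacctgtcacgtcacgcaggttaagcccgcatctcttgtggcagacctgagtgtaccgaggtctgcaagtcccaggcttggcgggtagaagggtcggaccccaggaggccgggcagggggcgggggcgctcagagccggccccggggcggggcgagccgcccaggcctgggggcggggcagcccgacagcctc
Dll1: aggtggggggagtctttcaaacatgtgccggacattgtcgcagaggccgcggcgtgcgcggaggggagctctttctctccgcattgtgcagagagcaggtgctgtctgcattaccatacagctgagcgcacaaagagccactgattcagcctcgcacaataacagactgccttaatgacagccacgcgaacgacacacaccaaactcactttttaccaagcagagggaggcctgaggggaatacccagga
The core letters that Rbpj binds, TGGGAA or their reverse complement TTCCCA, which do not overlap each other, were searched on both strands. They were in 21.6% of 32851 RefSeq windows of the same length. Among the Notch genes, 1 of 10 held them, Rbpj itself, at 149 and 65 bases before its first listed start. Counted by window, as for the 21.6%, 2 of 12 held them. The second Rbpj window overlaps the first and holds the site at 65 bases again. Both sites are shown 5′ to 3′ with the matching letters in capitals, at chr5:53590187-53590212 and chr5:53590271-53590296 on the plus strand.
Rbpj, upstream site: tgaaaaaggcTGGGAAcccgcggcga
Rbpj, downstream site: cgctcgcattTTCCCAggacccctcc
A match is a description of letters and not a binding site, and a window with no match says nothing of Rbpj at that gene.

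Per unit of transcript length, Jag1 was the most abundant of the ligands in both groups, and in NICD_wt its range lay above that of every receptor. In TPM (transcript abundance scaled for gene length and depth), Jag1 averaged 65.0 ± 14.3 in NICD_mut (SD, n = 2) and 44.2 ± 0.729 in NICD_wt (SD, n = 3). Notch1 came next in NICD_mut, at 53.8 and 57.5 TPM, and its range overlapped with that of Jag1. In NICD_mut the order was Jag1, Notch1, Rbpj, Notch3, Notch2, Dll4, Notch4, Jag2, Dll1 and Dll3, and the ranges of Rbpj and Notch3 overlapped, as did those of Dll4, Notch4 and Jag2. In NICD_wt the order was Jag1, Rbpj, Notch3, Notch1, Notch2, Dll1, Dll4, Notch4, Jag2 and Dll3, and the ranges of Notch1, Notch2 and Dll1 overlapped as neighbours, as did those of Dll4 and Notch4. Dll1 thus stood below all receptors in NICD_mut, where Dll3 alone was lower, and just under Notch2 in NICD_wt.

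**Figure D1:**
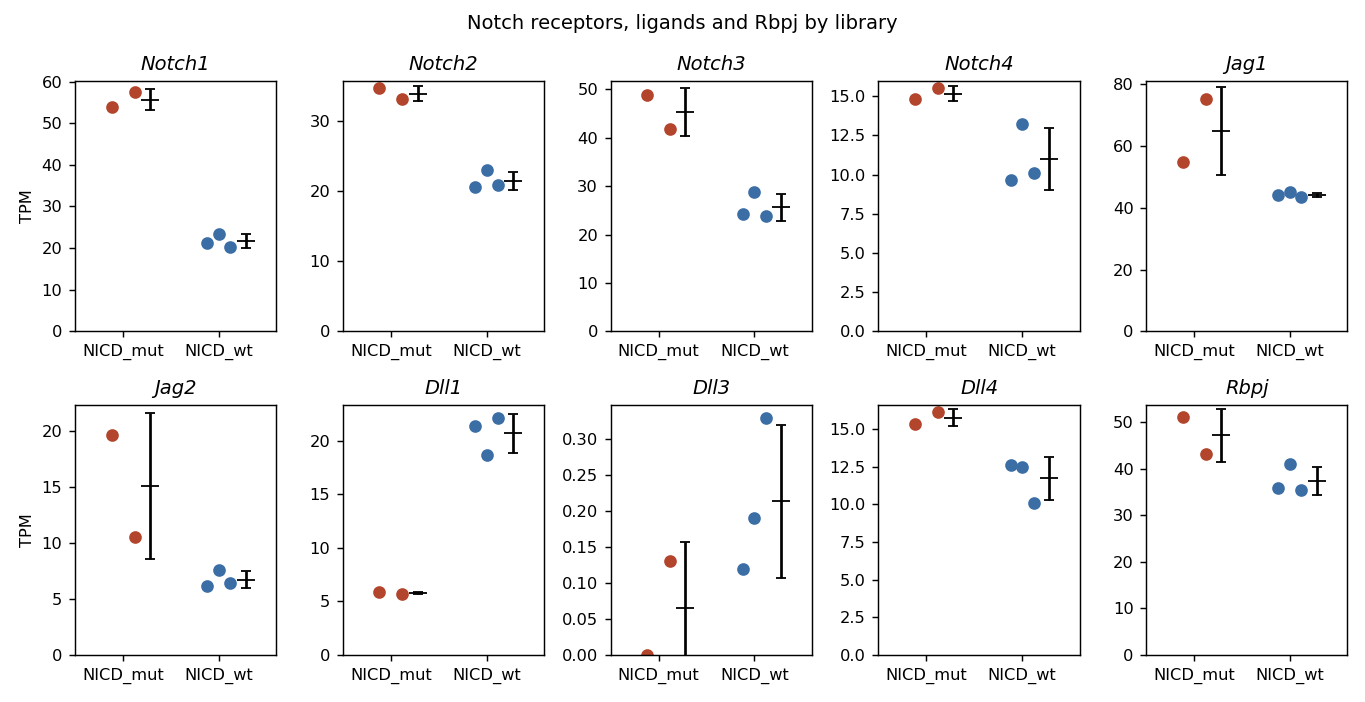
Level of each Notch gene in TPM (vertical axes, each starting at 0) in the NICD_mut and NICD_wt libraries. Points are libraries and black bars the mean ± SD (n = 2 and n = 3); Notch1 sits at 53.8 and 57.5 TPM in NICD_mut, above all NICD_wt libraries, and Dll1 at 5.87 and 5.70 TPM, below all of them.

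In the test on counts (edgeR quasi-likelihood, Benjamini-Hochberg adjusted over 15885 genes, threshold 0.05), 4 of 9 tested Notch genes rose, 1 fell and 4 did not pass. Of all tested genes 23.0% were called higher and 24.8% lower in NICD_mut, 47.7% in either direction, so the Notch genes are read against a background in which close to every second gene moved. The median log2 fold change of the 9 was 0.44, beside 0.01 over all tested genes. Dll3 was the gene not tested, being too low. In CPM the groups did not overlap for 7 of the 9, 6 higher and 1 lower in NICD_mut, beside 32.9% of all tested genes higher, 34.2% lower and 67.2% in either direction. Counts came from whole kidneys, in which fewer cells of a type and less RNA per cell cannot be told apart.

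**Figure D2:**
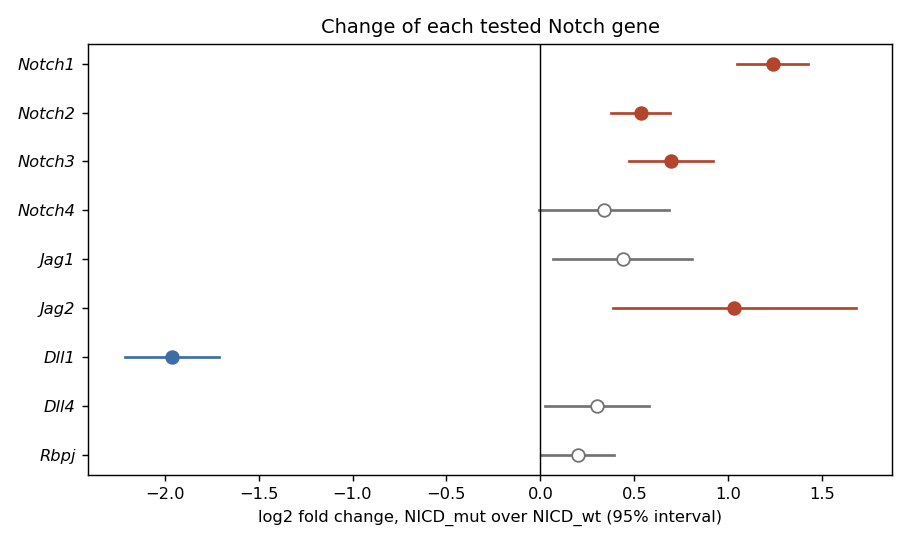
Log2 fold change of NICD_mut over NICD_wt (horizontal axis) for the 9 tested Notch genes, with 95% intervals from the edgeR fit. Filled points passed the test (red higher, blue lower) and open points did not; Dll1 is at -1.96, and Notch1 and Jag2 are above 1.

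Of the 4 receptors 3 rose in NICD_mut and Notch4 did not pass. Notch1, the receptor from which the transgene derives (mm10, chromosome 2, 26457903 to 26516663, minus strand), had 288 and 324 CPM in NICD_mut against 127, 142 and 120.2 CPM in NICD_wt. Both NICD_mut libraries were above every NICD_wt library, and the fitted level was 2.36-fold higher, a log2 change of 1.24 (95% interval 1.05 to 1.43; edgeR, Benjamini-Hochberg adjusted p = 1.03e-05). A count per gene does not separate transcripts of the Rosa26 allele from those of the endogenous gene. The ratio of count to TPM, which follows the effective transcript length used for a gene, varied for Notch1 by at most 0.822% from its mean over the 5 libraries, beside a median of 0.818% over 9704 well-covered genes. Whether the reference transcripts behind that length include one of the Rosa26 allele is not stated. The ratio therefore cannot tell transcripts of that allele from endogenous ones.

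Notch2, the receptor best known for nephron segmentation (chromosome 3, 98013527 to 98150361, plus strand), had 207 and 208 CPM in NICD_mut against 137, 154 and 138 CPM in NICD_wt. The groups did not overlap, and Notch2 rose by 0.53 on the log2 scale (SE 0.07, n = 2 and 3; edgeR, Benjamini-Hochberg adjusted p = 0.000307). Notch3, a receptor of mural cells (chromosome 17, 32120820 to 32166852, minus strand), had 218 and 196 CPM in NICD_mut against 120.2, 145 and 119 CPM in NICD_wt. It too did not overlap and rose, by 0.70 (SE 0.10; edgeR, Benjamini-Hochberg adjusted p = 0.000605). Beside it, 5 of 11 mural and stromal markers rose and 1 fell; the list summed to 2013 and 1122 CPM in NICD_mut against 840.3 to 1005 CPM in NICD_wt, and none of its genes was at 0. Notch3 was 0.62 higher without NICD_mut 1, where the muscle transcripts were. The part of mural cells in the change was not tested.

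Notch4, an endothelial receptor (chromosome 17, 34564268 to 34588503, plus strand), had 54.7 and 60.0 CPM in NICD_mut against 39.6, 54.8 and 41.4 CPM in NICD_wt. NICD_wt 2 lay level with NICD_mut 1, so the groups overlapped in CPM. The log2 change was 0.34 (95% interval -0.01 to 0.69) and did not pass (edgeR, Benjamini-Hochberg adjusted p = 0.0962). Without NICD_wt 2 it was 0.50 and passed (edgeR, Benjamini-Hochberg adjusted p = 0.00526). Without any other library it was between 0.25 and 0.40.

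The receptor transcripts summed to 152 and 148 TPM in NICD_mut against 75.7, 88.6 and 75.0 TPM in NICD_wt. Without Notch1 the sum was 98.5 and 90.5 TPM in NICD_mut against 54.4, 65.2 and 54.9 TPM in NICD_wt, so the other three receptors were also higher together. The make-up differed between the groups. Notch1 held 35.4 and 38.8% of the sum in NICD_mut against 28.2, 26.5 and 26.8% in NICD_wt. Notch2 held 22.8 and 22.4% in NICD_mut against 26.0 to 27.9% in NICD_wt, while the Notch3 share, 32.1 and 28.3% in NICD_mut, reached into the 31.9 to 32.6% of NICD_wt. The Notch1 values in NICD_mut may include transcripts of the Rosa26 allele, which the sum and the shares do not separate. These shares are descriptions with no test.

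Among the Delta-like ligands, Dll1 fell and Dll4 did not pass. Dll1, a ligand of the nascent nephron (chromosome 17, 15367354 to 15376872, minus strand), had 10.8 and 11.0 CPM in NICD_mut against 43.9, 38.4 and 45.3 CPM in NICD_wt. The libraries of each group lay close together and far from the other group, and the NICD_mut level was 0.257 of the NICD_wt level, a log2 change of -1.96 (SE 0.11; 95% interval -2.21 to -1.71; edgeR, Benjamini-Hochberg adjusted p = 4e-06). Without any one library the change stayed between -2.03 and -1.92. Beside it, 5 of 9 nascent nephron markers fell and 2 rose, with a median log2 change of -1.60. The list summed to 898 and 1193 CPM in NICD_mut against 1065 to 1097 CPM in NICD_wt, with no marker at 0, and includes Pax8 and Cdh6, which rose. It also includes Ccnd1, which did not pass the test, at 388 and 539 CPM in NICD_mut against 518, 513 and 518 CPM in NICD_wt. Of 7 nephron progenitor markers 5 fell and 1 rose, with sums of 77.1 and 54.6 CPM in NICD_mut against 384 to 402 CPM in NICD_wt. Their part in the fall of Dll1 was not tested.

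Dll4, an arterial and capillary ligand (chromosome 2, 119325784 to 119335962, plus strand), had 28.5 and 31.4 CPM in NICD_mut against 26.1, 25.8 and 20.9 CPM in NICD_wt. The groups did not overlap, as for 32.9% of all tested genes in that direction, and the log2 change of 0.30 (95% interval 0.03 to 0.58) did not pass (edgeR, Benjamini-Hochberg adjusted p = 0.0686). With a library left out it ran from 0.20, without NICD_wt 3, to 0.36, without NICD_mut 1. It did not pass without any of the NICD_wt libraries. For the fits with a lone NICD_mut library, only the change is given here. Dll3, a divergent ligand of the somites (chromosome 7, 28293553 to 28302238, minus strand), was read at 0 and 3 counts in NICD_mut against 3, 5 and 7 counts in NICD_wt. Its ratio of NICD_mut to NICD_wt, 0.281, had a 95% exact counting interval of 0.0521 to 0.992, which covers counting error only.

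The endothelial markers rose almost as a whole list. Of 16 endothelial markers 15 rose and none fell, none was at 0, and their sum was 2087 and 2653 CPM in NICD_mut against 1248, 1372 and 1285 CPM in NICD_wt. Set against that sum, Dll4 stood at 1.37 and 1.18% in NICD_mut against 2.09, 1.88 and 1.63% in NICD_wt. Notch4 stood at 2.62 and 2.26% in NICD_mut against 3.17, 4.0 and 3.22% in NICD_wt. Both ratios were lower in NICD_mut with no overlap, given here with no test. This was not particular to them, since the ratios of Notch2, Jag1, Dll1, Dll3 and Rbpj were also lower with no overlap (that of Notch2 overlaps once Cldn5 is left out), and that of Notch1 was higher. The sum includes Cldn5, which podocytes also make; without it, a choice made after seeing the data, Dll4 stood at 1.65 and 1.53% in NICD_mut against 1.77 to 2.28% in NICD_wt, and Notch4 at 3.17 and 2.94% in NICD_mut against 3.45 to 4.33% in NICD_wt.

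The Jagged ligands were higher in both NICD_mut libraries, but those libraries disagreed on which of them moved further. Jag1, the ligand of the developing nephron whose human counterpart is mutated in Alagille syndrome (chromosome 2, 137081456 to 137116644, minus strand), had 167 and 240.0 CPM in NICD_mut against 149.8, 154 and 148 CPM in NICD_wt. NICD_mut 2 was far above the narrow NICD_wt range and NICD_mut 1 just above it. The log2 change of 0.44 (95% interval 0.07 to 0.81) did not pass (edgeR, Benjamini-Hochberg adjusted p = 0.0573). Without NICD_mut 1 it was 0.67 and passed (edgeR, Benjamini-Hochberg adjusted p = 8.3e-07), and without NICD_mut 2 it was 0.145 and did not. The 7 podocyte markers, 6 of which rose and 1 fell with none at 0, also differed between these libraries, with sums of 1510 and 2217 CPM in NICD_mut against 862 to 915 CPM in NICD_wt; their part in Jag1 was not tested.

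Jag2 (chromosome 12, 112907819 to 112929776, minus strand), the second Jagged ligand, had 43.4 and 24.3 CPM in NICD_mut against 15.2, 18.8 and 15.7 CPM in NICD_wt. Here NICD_mut 1 was the higher library, and both were above NICD_wt. Jag2 rose by 1.03 on the log2 scale (SE 0.26; edgeR, Benjamini-Hochberg adjusted p = 0.0216). It did not pass without NICD_wt 1 or NICD_wt 3, at 0.97 and 0.99 (edgeR, Benjamini-Hochberg adjusted p = 0.0773 and 0.0823), or by limma-voom with all libraries, at 0.98 (Benjamini-Hochberg adjusted p = 0.0586). Without NICD_mut 1, the library with the muscle transcripts, the change was 0.55 and passed with a lone NICD_mut library (edgeR, Benjamini-Hochberg adjusted p = 0.00844).

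The make-up of the ligand transcripts is given per library, with no test. The 5 ligands summed to 95.8 and 108 TPM in NICD_mut against 84.4, 83.9 and 82.5 TPM in NICD_wt. Dll1 held 6.13 and 5.30% of that sum in NICD_mut against 25.3, 22.2 and 26.8% in NICD_wt. Jag1 held 57.4 and 69.8% in NICD_mut against 52.3, 53.7 and 52.8% in NICD_wt, and Jag2 held 20.5 and 9.75% in NICD_mut against 7.29, 9.06 and 7.75% in NICD_wt. Delta-like transcripts summed to 21.2 and 22.0 TPM in NICD_mut against 31.3 to 34.1 TPM in NICD_wt, and Jagged transcripts to 74.6 and 85.6 TPM in NICD_mut against 49.9 to 52.6 TPM in NICD_wt. The ratio of Jag1 to Dll1 was 9.36 and 13.2 in NICD_mut against 2.07, 2.42 and 1.97 in NICD_wt. The receptor sum was 1.59 and 1.38 times the ligand sum in NICD_mut, against 0.897 to 1.06 times in NICD_wt. In NICD_mut that receptor sum may include Notch1 transcripts of the Rosa26 allele.

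**Figure D3:**
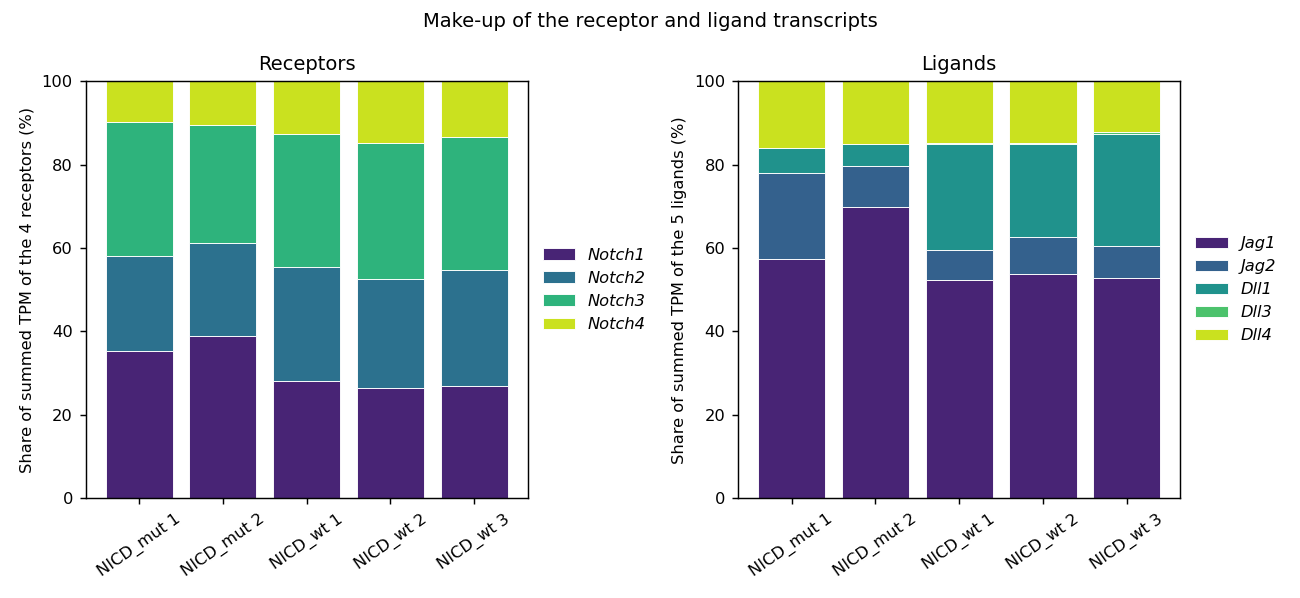
Share of each receptor in the summed TPM of the 4 receptors (left) and of each ligand in that of the 5 ligands (right), in percent, for each library. Dll1 takes 6.13 and 5.30% of ligand TPM in NICD_mut and over 22% in each NICD_wt library, and Notch1 takes a larger share of receptor TPM in both NICD_mut libraries. Notch1 TPM in NICD_mut may include transcripts of the Rosa26 allele.

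Rbpj, the mediator that the freed intracellular domain of each receptor binds (chromosome 5, 53466152 to 53657362, plus strand), had 154 and 136 CPM in NICD_mut against 122, 139 and 119 CPM in NICD_wt. NICD_mut 2 lay below NICD_wt 2, so the groups overlapped. The log2 change of 0.20 (95% interval 0.01 to 0.39) did not pass (edgeR, Benjamini-Hochberg adjusted p = 0.0842). It was 0.28 without NICD_mut 2 and 0.106 without NICD_mut 1. Those fits hold a lone NICD_mut library, so only the change is given. Without NICD_wt 2 it was 0.27 and passed (edgeR, Benjamini-Hochberg adjusted p = 0.032). Without NICD_wt 1 or NICD_wt 3 it was 0.17 and 0.16 and did not pass.

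On the TPM scale more of the Notch genes passed. By limma on log2(TPM + 1), 8 rose and 1 fell, where 28.9% of 14884 genes were called higher, 18.7% lower and 47.6% in either direction, and the median of all genes was itself shifted up by 0.11. Against that shift, the log2(TPM + 1) changes of the genes that had not passed on counts were 0.44 for Notch4, 0.53 for Jag1, 0.40 for Dll4 and 0.32 for Rbpj. Jag2, Notch1, Notch2, Notch3 and Dll1 kept their directions and calls in that fit.

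**Figure D4:**
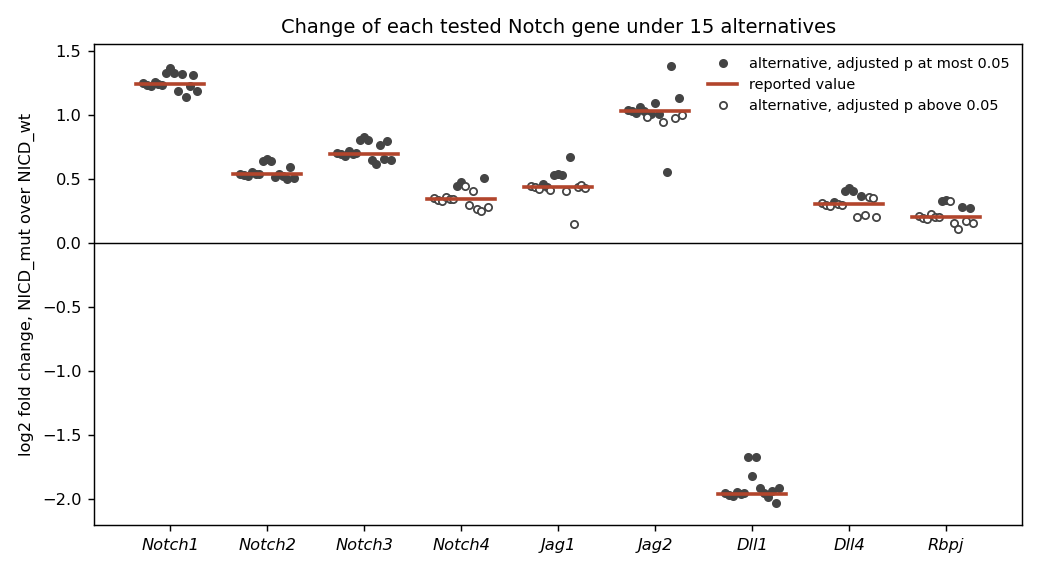
Log2 fold change of NICD_mut over NICD_wt (vertical axis) for the 9 tested Notch genes, as reported (red line) and under 15 alternatives (points, filled where the adjusted p was at most 0.05). Notch1, Notch2, Notch3 and Dll1 pass in all 15, Jag2 in 11, and the others in 3 to 6.

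Counting both directions, the other genes of the pathway were called about as often as genes at large, but their calls were mostly rises. From lists chosen with earlier results of these data known, 61 of 62 symbols were in the tables and 59 were tested; 21 rose, 5 fell and 33 did not pass, with a median log2 change of 0.15. Over all tested genes 23.0% were called higher, 24.8% lower and 47.7% in either direction. Of 9 genes that cleave the receptor, with a median of 0.06, 2 rose, the gamma-secretase subunits Psen2 by 0.49 (SE 0.11) and Ncstn by 0.33 (SE 0.09), and the ADAM protease gene Adam10 was at 0.02 (SE 0.06). Of 9 genes for ligand ubiquitination and endocytosis 3 rose, the dynamin Dnm2 by 0.51 (SE 0.07) and the ligases Mib2 by 0.59 (SE 0.09) and Neurl3 by 0.70 (SE 0.18), while Mib1, the main ligase of ligand activation, was at 0.09 (SE 0.08). Adam10 and Mib1 were named for their known roles after their values were seen. Of 6 receptor maturation genes 2 fell, the fringe glycosyltransferase Lfng by 0.94 (SE 0.15) and the O-glucosyltransferase Poglut1 by 0.42 (SE 0.09).

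Of 10 tested partners and repressors of Rbpj, 4 rose and 2 fell. The coactivator Maml2 rose by 0.55 (SE 0.11), while Rita1, which carries Rbpj out of the nucleus, fell by 0.74 (SE 0.18). Of 13 receptor turnover genes 6 rose and none fell, among them Numbl by 0.945 (SE 0.08), the Deltex family gene Dtx3 by 0.73 (SE 0.08) and the kinase Aak1 by 0.42 (SE 0.06). Of 6 tested other ligands 3 rose, the neuronal proteins Dner by 1.91 (SE 0.41) and Cntn1 by 1.58 (SE 0.20), and the vascular Egfl7 by 0.25 (SE 0.09). Of 6 targets 3 rose, among them the repressors Hey2 by 1.44 (SE 0.15) and Heyl by 1.38 (SE 0.15), and Hes5 alone fell, by 3.82 (SE 0.30). All of these calls are from the edgeR quasi-likelihood test with Benjamini-Hochberg adjustment over all tested genes.

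**Figure D5:**
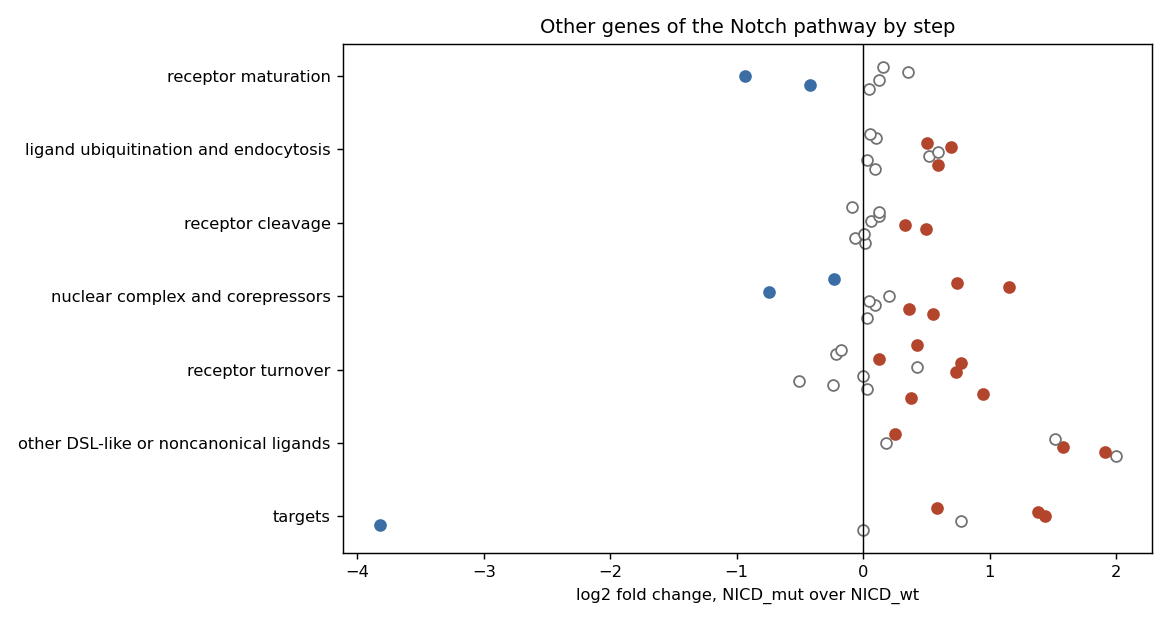
Log2 fold change of NICD_mut over NICD_wt (horizontal axis) for the 59 tested pathway genes other than the receptors, ligands and Rbpj, by step of the pathway. Filled points passed the test (red higher, blue lower), open points did not; 2 of the 9 receptor cleavage genes, Psen2 at 0.49 and Ncstn at 0.33, are higher, and Hes5 lies at -3.82.

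Genes with the most similar profiles to each called Notch gene were found by the root mean square difference in gene-centred log2 CPM over the 5 libraries, among 13728 other genes. Closest to Notch1 were the collagen Col4a1, the transcription factor Nfia and the sulfotransferase Sult1d1, at 0.03 to 0.04 log2 units. Closest to Notch2 were Dmd, which encodes dystrophin, the protease gene Ctsh and Fnip1, at 0.02, and closest to Notch3 the dynein heavy chain gene Dync1h1, the talin gene Tln1 and the ETS factor Elf3, at 0.02 to 0.03. Jag2 lay nearest to Ripor2, Igdcc4 and the kinase Mylk, at 0.06, and of those Igdcc4 did not pass (edgeR, Benjamini-Hochberg adjusted p = 0.0564). Dll1 lay nearest to the chromatin protein gene Hmga2, at 0.04, then B4galnt4 and Cdkl1, at 0.07 and 0.10. Hmga2 changed by -1.97 (SE 0.08), beside -1.96 for Dll1, a closeness that follows from choosing genes by profile in these same libraries.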

How the data were processed

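Bulk RNA from kidneys was sequenced in 5 libraries. The authors made an estimated count per gene symbol, deposited as whole numbers, with RSEM and Bowtie2 on mm10, per the submitters' processing notes. They also deposited TPM for these libraries, which are scaled by transcript length and depth. Tool versions, the annotation and strandedness are not stated in these sources, so overlapping and antisense genes cannot be told apart.

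Counts were scaled with TMM, kept where filterByExpr with the groups passed them (at least 10 counts, at least 15 in total) and tested with the edgeR 4.0.16 quasi-likelihood test in R 4.3.3, NICD_mut against NICD_wt with no covariate, on 15885 genes. Levels are TMM-scaled CPM or deposited TPM, and standard errors and intervals come from the fit. Alternatives were other size factors, no filter, a stricter filter (50 counts in 2 libraries), DESeq2 1.42.0, limma-voom and limma 3.58.1 on log2 TPM (pseudocounts 1 and 0.1), a replicate block and each library left out.

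The genes and lists were chosen with earlier results of these data known. Named pathway genes are up to 3 per list with the smallest adjusted p among those passing, plus any that alone moved against its list, and 1 gene that this rule takes is not reported here; profile matches needed a mean log2 CPM of at least 1. Figures were drawn with matplotlib 3.10.9. Gene coordinates are from GENCODE M21.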

Additional observations from a re-analysis of the deposited data

How the results depend on the processing

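Dll1 fell and Notch1, Notch2 and Notch3 rose under all 15 alternatives, with log2 changes of -2.03 to -1.67, 1.14 to 1.36, 0.50 to 0.66 and 0.62 to 0.82. The number of Notch genes that rose was 8 by limma on log2(TPM + 1) and on log2(TPM + 0.1), 6 with the stricter filter and with limma on unfiltered log2(TPM + 1), 5 by DESeq2 and 3 by limma-voom, against 4 as reported; the cause was not tested. With one library left out it ran from 3 to 6, while 1 fell each time; pathway genes that rose ran from 15 to 27 and those that fell from 4 to 6. All genes that rose ran from 2797 to 3843 and those that fell from 3101 to 4207. Genes that fell numbered 2606 by limma on unfiltered log2(TPM + 1), against 3934. Of all calls 48.1% were higher on counts and 60.7% by limma on log2(TPM + 1).

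Libraries of the groups share replicate numbers, but nothing says that a number marks a litter or batch. Across genes, deviations from the group means correlated at 0.34 between NICD_mut 1 and NICD_wt 1 and at 0.149 between NICD_mut 2 and NICD_wt 2, but at 0.234 between NICD_mut 2 and NICD_wt 3, whose numbers differ. With 2 NICD_mut libraries, the deviations of NICD_mut 2 mirror those of NICD_mut 1, so these values are not independent of each other. They cannot decide whether the numbers pair the libraries. With replicate number as a block, 2654 genes rose and 2881 fell, 3 Notch genes rose and 1 fell, and 17 pathway genes rose and 4 fell. Jag2 did not pass with the block, at 0.95 (edgeR, Benjamini-Hochberg adjusted p = 0.14). Fits with a lone NICD_mut library assume that it varies like the NICD_wt libraries. With 2 NICD_mut libraries, the intervals of Notch4, Jag1, Dll4 and Rbpj leave both small and moderate changes possible.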

Other observations

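The NICD_mut libraries differed from each other in some genes of the pathway lists, named after their values were seen. Dlk1, a Delta-like relative that lacks the receptor-activating domain, had 18156 and 3939 counts in NICD_mut against 3751, 2556 and 1473 counts in NICD_wt, and its log2 change of 2.0 (SE 0.85) did not pass (edgeR, Benjamini-Hochberg adjusted p = 0.157). Mfap5, a microfibril protein, had 757 and 266 counts in NICD_mut against 204, 185 and 114 counts in NICD_wt. Both were highest in NICD_mut 1, the library with 3235 CPM of skeletal muscle markers. The target Hey1 went the other way, with 1624 and 3206 counts in NICD_mut against 1302, 1479 and 1231 counts in NICD_wt.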
